A study of Mus musculus with 6 samples.

Results

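The collagen chains of mouse heart were followed in 6 RNA libraries. The members were all rows of the gene table whose symbol has the form Col, a number, the letter a and a number, with 1 row per symbol. There were 44 such chains among 26835 rows: 11 fibrillar, 6 basement membrane (type IV) and 27 others. A mean of at least 1 FPKM (fragments counted per length of transcript and per depth of library) over the 6 libraries was required for testing. It was met by 17 chains, of which 6 were fibrillar, 3 basement membrane and 8 other, among 10329 genes tested in all.

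The CFZ group received carfilzomib at 8 mg/kg, the CFZ_EA group received carfilzomib at 8 mg/kg with electroacupuncture at the acupoint PC6, and the control group received 10% DMSO intraperitoneally, with 2 libraries per group. Carfilzomib is an irreversible proteasome inhibitor used against multiple myeloma, and electroacupuncture passes a current through acupuncture needles. All mice were C57BL/6, 7 to 8 weeks old, 20 g ± 2 g in weight and of the genotype written as wide type in the labels, and days 0, 2, 4 and 6 are listed for every library. The labels do not say whether replicates are separate mice, which day the hearts were taken or which region of the heart was used, and the spread between libraries on which the p-values rest may thus be technical.

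Collagens are the main structural proteins of the extracellular matrix, and their chains wind around one another along a Gly-X-Y repeat. In the heart, types I and III form the fibrils of the interstitium, which are made mainly by fibroblasts, while type V chains join those fibrils and regulate their diameter. Type IV chains form the network of the basement membrane around cardiomyocytes and capillaries, and type VI chains form beaded filaments next to it.

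The repeat can be read from the gene models. A coding exon of 54 bases that opens with a glycine codon is shown for the abundant chains of types I, III and IV, 5′ to 3′ along the gene, from GENCODE M21 on GRCm38. The glycine codon that opens each Gly-X-Y unit is in capitals, and any other glycine codon is in lower case. The stretches are coding exon 8 of Col1a1 (chr11:94939904-94939957, plus strand), coding exon 6 of Col3a1 (chr1:45325360-45325413, plus strand) and coding exon 7 of Col4a1 (chr8:11245211-11245264, minus strand).
Col1a1: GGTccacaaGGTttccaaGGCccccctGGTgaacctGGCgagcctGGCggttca
Col3a1: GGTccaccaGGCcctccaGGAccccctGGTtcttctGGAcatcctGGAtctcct
Col4a1: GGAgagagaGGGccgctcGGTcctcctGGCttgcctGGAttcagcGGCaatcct
The tested classes differed in how regular this structure is. The 6 fibrillar chains had 21 to 31 coding exons of 54 bases and a longest unbroken run of 337 to 344 Gly-X-Y units. The 3 basement membrane chains had 1 to 3 such exons and runs of 40 to 66 units, and the 8 others had 1 to 12 exons and runs of 30 to 87 units.

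Chains of 1 class also lie next to each other in the genome. Col4a1 (chr8:11198423-11312826, minus strand) and Col4a2 (chr8:11312805-11449287, plus strand) are read away from each other, and their gene models overlap by 22 bases at the start. Col3a1 and Col5a2 lie 24614 bases apart on chromosome 1, and Col6a2 and Col6a1 lie 85161 bases apart on chromosome 10. RefSeq promoter windows on GRCm38.p6, covering 250 bases before to 50 after a start, were found for 35 of 44 symbols and 14 of 17 tested chains. The windows of the type IV pair (Col4a1, chr8:11312777-11313076, minus strand; Col4a2, chr8:11312555-11312854, plus strand) are shown because they share 78 bases, in capitals, read on opposite strands.
Col4a1: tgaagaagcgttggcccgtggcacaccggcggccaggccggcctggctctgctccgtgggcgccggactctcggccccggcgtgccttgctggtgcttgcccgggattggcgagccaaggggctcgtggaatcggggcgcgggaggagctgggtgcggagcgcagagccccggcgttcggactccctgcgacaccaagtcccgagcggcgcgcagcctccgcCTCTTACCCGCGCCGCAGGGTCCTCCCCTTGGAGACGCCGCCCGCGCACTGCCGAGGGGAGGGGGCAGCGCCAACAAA
Col4a2: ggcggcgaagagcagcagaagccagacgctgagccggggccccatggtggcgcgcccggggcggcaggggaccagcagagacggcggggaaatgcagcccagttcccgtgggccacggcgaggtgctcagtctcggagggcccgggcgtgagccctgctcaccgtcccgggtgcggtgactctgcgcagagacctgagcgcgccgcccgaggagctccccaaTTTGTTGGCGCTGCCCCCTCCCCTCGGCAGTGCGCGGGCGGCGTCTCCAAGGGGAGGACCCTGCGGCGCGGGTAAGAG

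The windows of the fibrillar chains Col1a2 (chr6:4505368-4505667, plus strand) and Col3a1 (chr1:45311288-45311587, plus strand) are shown with motif matches in capitals. Both chains were highest in control replicate 2 and lowest in CFZ replicate 2, and a link between motifs and levels was not tested. The motifs searched on both strands were the TATA box letters TATAAA, the CCAAT box letters CCAAT and, as the core of the GC box, the letters GGGCGG.
Col1a2: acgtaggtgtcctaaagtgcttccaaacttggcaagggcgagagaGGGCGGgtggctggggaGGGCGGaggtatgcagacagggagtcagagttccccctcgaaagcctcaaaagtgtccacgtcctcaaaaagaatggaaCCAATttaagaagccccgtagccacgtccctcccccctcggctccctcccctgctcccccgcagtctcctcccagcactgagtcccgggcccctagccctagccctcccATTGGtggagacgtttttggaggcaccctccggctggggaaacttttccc
Col3a1: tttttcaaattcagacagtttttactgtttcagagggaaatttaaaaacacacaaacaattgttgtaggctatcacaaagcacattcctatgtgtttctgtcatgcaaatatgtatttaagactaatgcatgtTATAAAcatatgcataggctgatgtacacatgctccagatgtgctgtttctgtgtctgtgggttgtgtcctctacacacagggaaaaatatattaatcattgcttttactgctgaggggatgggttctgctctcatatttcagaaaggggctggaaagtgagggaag
The Col1a2 window holds GGGCGG at 2 places and CCAAT once in each orientation, and the Col3a1 window holds TATAAA once. Among all 32851 windows of the same length, TATAAA is present in 13.6%, CCAAT in 37.4% and GGGCGG in 35.7%. Among the 4 windows of tested fibrillar chains, TATAAA is in 1, CCAAT in 2 and GGGCGG in 3. Among the 3 windows of tested type IV chains, CCAAT and GGGCGG are in all 3 and TATAAA is in 0.

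Total estimated counts ran from 50013990 to 75742448 per library. The defining markers of heart muscle were present: all 8 cardiomyocyte genes examined were tested, and their summed FPKM lay between 18066 in control replicate 2 and 21355 in CFZ replicate 2. Control replicate 2 stood apart, at 41.1 on the first principal component, which carried 41.8% of the variance, against -16.1 to -0.998 for the other 5 libraries. Fold changes, class medians and counts of edgeR calls that rest on it are therefore also given without it. Some fold changes are then given only as a class range or median. Where only 1 control library is left in a fit, it is assumed to vary like the libraries of the other groups. Control replicate 2 held the highest FPKM of 14 of 17 tested chains, against 40.7% of all genes tested. CFZ replicate 2 held the lowest FPKM of all 17 tested chains, against 27.2% of all genes tested. The same count by TMM-scaled CPM, counts scaled to library size with edgeR's trimmed mean of M-values, was 17 chains, against 18.2% of genes.

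Among the tested chains, those of types I and III differed most between libraries. Col1a1, a chain of type I collagen (ENSMUSG00000001506, chr11:94936224-94953042), was at 14.8 and 11.3 FPKM in CFZ hearts, 17.1 and 22.1 FPKM in CFZ_EA hearts, and 21.3 and 287 FPKM in control hearts. Its partner in the type I molecule, Col1a2 (ENSMUSG00000029661, chr6:4504814-4541544), was at 8.55 and 6.14 FPKM in CFZ hearts, 9.49 and 10.9 FPKM in CFZ_EA hearts, and 11.5 and 103 FPKM in control hearts. Col3a1, the chain of type III collagen (ENSMUSG00000026043, chr1:45311538-45349706), was at 24.5 and 14.7 FPKM in CFZ hearts, 23.8 and 26.4 FPKM in CFZ_EA hearts, and 31.5 and 349 FPKM in control hearts. In all 3 genes 1 control library was far above the other 5, and both CFZ libraries were below both control libraries. A gene model of 141 bases, Gm47302, lies within Col3a1 on the same strand and was at 13.6 to 276 FPKM, so the counting may have split some Col3a1 reads.

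The type V chains, minor components of the same fibrils, were less abundant. Col5a1 was at 6.19 and 4.42 FPKM in CFZ hearts, 6.10 and 6.78 FPKM in CFZ_EA hearts, and 6.71 and 36.1 FPKM in control hearts. Col5a2 was at 3.25 and 1.92 FPKM in CFZ hearts, 2.89 and 3.61 FPKM in CFZ_EA hearts, and 3.86 and 22.9 FPKM in control hearts. Col5a3 was at 6.36 and 5.34 FPKM in CFZ hearts, 6.37 and 6.40 FPKM in CFZ_EA hearts, and 5.51 and 16.01 FPKM in control hearts. For Col5a1 and Col5a2 the CFZ and control groups did not overlap, and for Col5a3 the CFZ values lay on both sides of control replicate 1.

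Col4a1 and Col4a2, the main basement membrane chains, were the most abundant of all 44 chains outside control replicate 2, and no tested type IV chain differed by as much as 2-fold over the 6 libraries. Col4a1 was at 80.4 and 54.5 FPKM in CFZ hearts, 60.2 and 67.3 FPKM in CFZ_EA hearts, and 79.6 and 72.7 FPKM in control hearts. Col4a2 was at 76.9 and 54.4 FPKM in CFZ hearts, 64.9 and 62.9 FPKM in CFZ_EA hearts, and 74.3 and 94.1 FPKM in control hearts. Col4a5 (chr X), a chain of a separate type IV network, was at 3.46 and 2.28 FPKM in CFZ hearts, 3.35 and 3.64 FPKM in CFZ_EA hearts, and 4.19 and 3.97 FPKM in control hearts. The lowest value of each of these 3 genes was in CFZ replicate 2.

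Among the other chains, those of the type VI beaded filament led. Col6a1 was at 30.6 and 21.4 FPKM in CFZ hearts, 29.0 and 28.5 FPKM in CFZ_EA hearts, and 29.6 and 72.3 FPKM in control hearts. Col6a2, its partner, was at 15.9 and 11.7 FPKM in CFZ hearts, 16.03 and 16.55 FPKM in CFZ_EA hearts, and 16.3 and 37.7 FPKM in control hearts. Col6a3 was at 4.31 and 2.58 FPKM in CFZ hearts, 3.85 and 3.41 FPKM in CFZ_EA hearts, and 3.69 and 11.05 FPKM in control hearts. These 3 chains were alike in that 5 libraries were close together and control replicate 2 was higher. Col6a6 was close to the minimum, at 0.898 to 1.49 FPKM in the 6 libraries.

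The multiplexins, basement membrane collagens that carry heparan or chondroitin sulfate chains, and the FACITs, collagens that sit on the surface of fibrils, completed the tested set. Col15a1, a multiplexin, was at 19.4 and 11.2 FPKM in CFZ hearts, 19.0 and 17.6 FPKM in CFZ_EA hearts, and 17.8 and 26.1 FPKM in control hearts. Col18a1, the multiplexin from which endostatin is released, was at 2.27 and 1.69 FPKM in CFZ hearts, 2.08 and 3.73 FPKM in CFZ_EA hearts, and 2.92 and 8.22 FPKM in control hearts. Its CFZ values were below both control values, whereas those of Col15a1 were not. Among the FACITs, Col14a1 was at 1.92 and 1.17 FPKM in CFZ hearts, 1.81 and 2.48 FPKM in CFZ_EA hearts, and 2.36 and 13.9 FPKM in control hearts. Col16a1 was at 1.48 and 1.09 FPKM in CFZ hearts, 1.56 and 2.06 FPKM in CFZ_EA hearts, and 2.03 and 8.48 FPKM in control hearts. In both FACITs the groups CFZ and control did not overlap, and control replicate 2 was again the highest library.

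**Figure D1:**
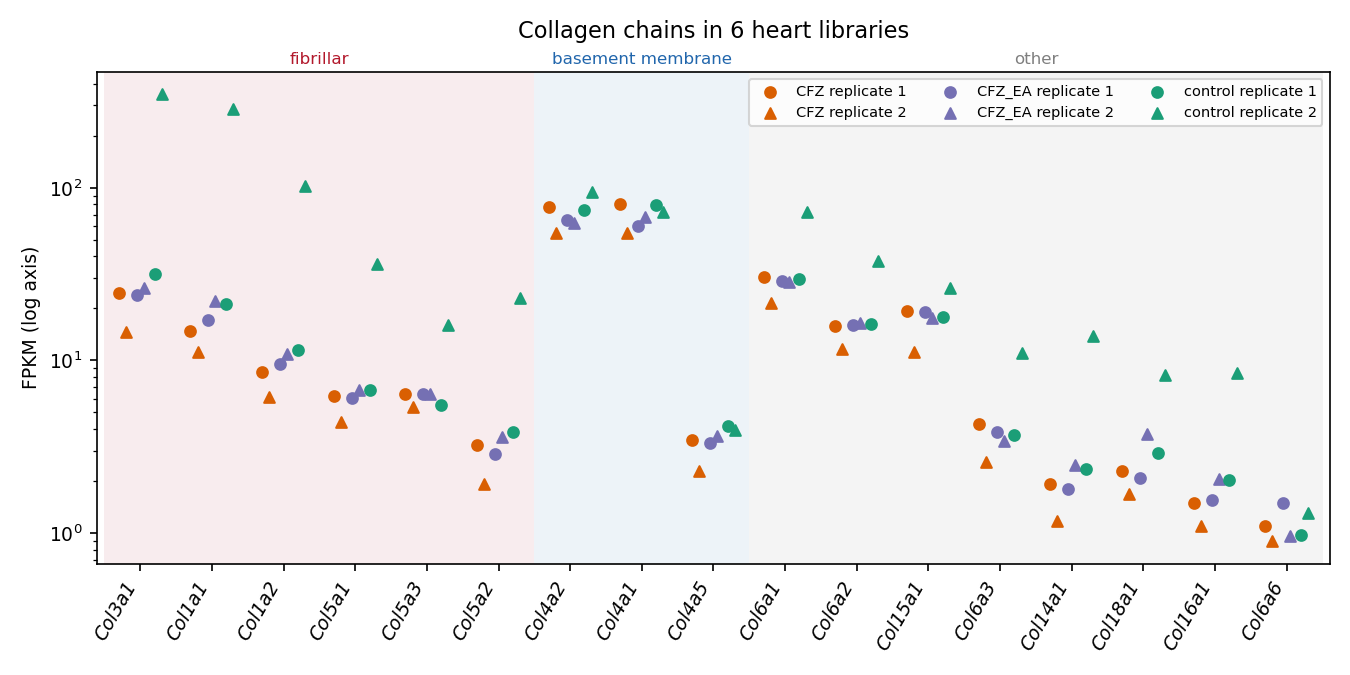
FPKM (log axis) of the 17 tested collagen chains in each of the 6 libraries, ordered by class and by mean, with circles for replicate 1 and triangles for replicate 2 of the CFZ, CFZ_EA and control groups. Control replicate 2 is the highest library for 14 of 17 chains and CFZ replicate 2 is the lowest for all 17.

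The other 27 chains fell below a mean of 1 FPKM and were not tested. The closest were Col8a1, a network-forming chain of vessels and valves, just outside at a mean of 0.877 FPKM, and Col6a6 just inside at 1.12 FPKM. Control replicate 2 was the highest library for 13 of the 27: Col8a1, Col27a1, Col4a6, Col20a1, Col8a2, Col12a1, Col7a1, Col9a2, Col24a1, Col11a1, Col6a5, Col25a1 and Col9a1. Col12a1, a FACIT, was at 0.0422 and 0.0314 FPKM in CFZ hearts, 0.129 and 0.0698 FPKM in CFZ_EA hearts, and 0.0605 and 1.39 FPKM in control hearts. Its FPKM was 22.9 times as high in control replicate 2 as in control replicate 1, and among the 27 it had the most counts in control replicate 2 (1162). The fibrillar chain Col24a1 had 7 and 0 counts in CFZ hearts, 4 and 4 in CFZ_EA hearts, and 0 and 125 in control hearts. The fibrillar chain Col11a1 had 4 and 4 counts in CFZ hearts, 14 and 11 in CFZ_EA hearts, and 8 and 99 in control hearts. Col6a5 had 0 and 0 counts in CFZ hearts, 10 and 8 in CFZ_EA hearts, and 4 and 71 in control hearts. These 4 of the 13 thus stood highest in the same library as the abundant fibrillar chains, while the low fibrillar chains Col11a2 and Col2a1 did not. Of all genes tested, 40.7% were highest in control replicate 2, and the share among untested genes is not given here.

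Highest in control replicate 1 were Col4a4, Col28a1 and Col2a1. Highest in CFZ_EA replicate 1 were Col13a1, Col11a2, Col4a3 and Col10a1, and in CFZ_EA replicate 2 Col23a1, Col9a3 and Col17a1. Highest in CFZ replicate 1 were Col26a1 and Col19a1, and in CFZ replicate 2 Col22a1 and Col6a4. Of these, Col10a1, Col17a1, Col6a4 and Col19a1 had fewer than 10 counts in every library, so no order can be read for them.

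The first comparison was between the control libraries themselves, as ratios of TMM-scaled CPM in control replicate 2 over control replicate 1. All 6 fibrillar chains, 0 of 3 basement membrane chains and 6 of 8 other chains were at least 2-fold higher in control replicate 2. That is 12 of 17, against 5.16% of all genes tested. All 17 chains also averaged at least 1 FPKM over the 5 other libraries, so none was tested only through its level in control replicate 2. Without the filter, 21 of the 37 chains with counts in both control libraries were at least 2-fold higher, against 12.2% of genes with counts in both. The ratio was 12.3 for Col1a1 (95% counting interval 12.0 to 12.6), 10.1 for Col3a1 (9.99 to 10.3) and 8.18 for Col1a2 (8.00 to 8.36). At the other end it was 0.834 for Col4a1 (0.821 to 0.846), 0.866 for Col4a5 (0.808 to 0.929) and 1.16 for Col4a2 (1.14 to 1.18). Fibrillar chains had a median log2 ratio of 2.74, basement membrane chains of -0.21 and other chains of 1.26, beside 0.01 over all genes tested. Intervals cover counting error only and are too narrow if 1 read gave several counts. A single library stands on each side, so there is no replicate check.

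**Figure D2:**
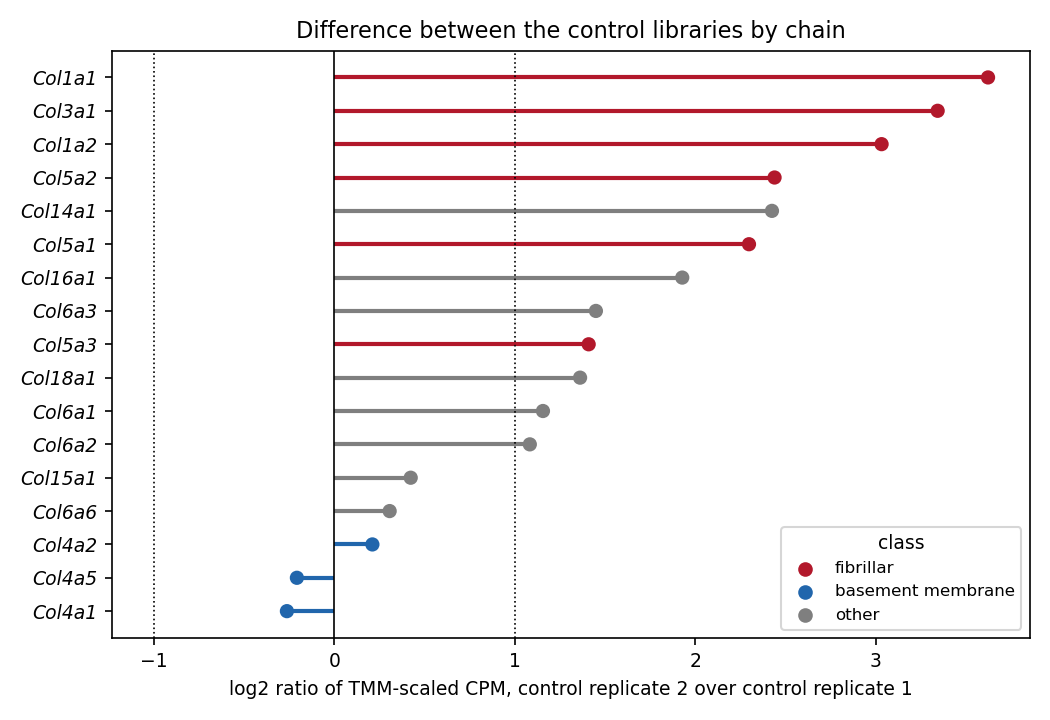
Log2 ratio of TMM-scaled CPM in control replicate 2 over control replicate 1 for each tested chain, coloured by class, with dotted lines at a 2-fold difference either way. The 6 fibrillar chains lie to the right of the 2-fold line and the 3 basement membrane chains lie within it.

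Summed over all 44 chains, control replicate 2 held 1173 FPKM of collagen, and control replicate 1 held 318 FPKM. The fibrillar sum was 815 FPKM in control replicate 2 against 80.8 FPKM in control replicate 1, a ratio of 10.1. The basement membrane sum was 172 FPKM in control replicate 2 against 159 FPKM in control replicate 1, a ratio of 1.08. Fibrillar chains thus made up 69.5% of the collagen FPKM in control replicate 2 and 25.4% in control replicate 1. In the treated hearts the fibrillar share was 21.1% and 21.1% in CFZ and 24.3% and 26.5% in CFZ_EA, with CFZ the lower.

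**Figure D3:**
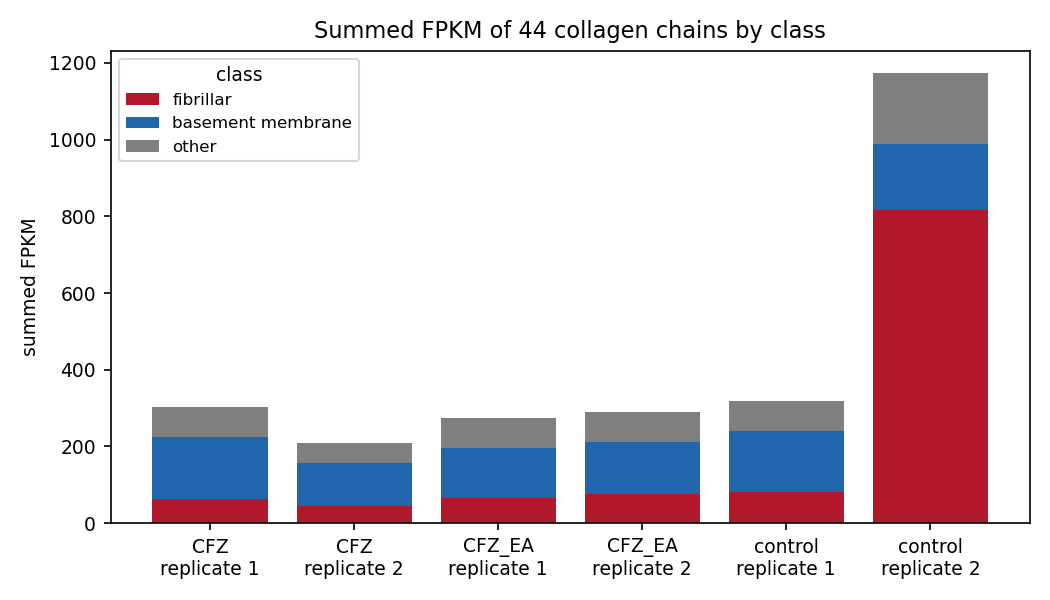
Summed FPKM of the 44 collagen chains in each library, stacked by class. The fibrillar part reaches 815 FPKM in control replicate 2 and lies between 44.1 and 80.8 FPKM in the other 5 libraries, while the basement membrane part lies between 112 and 172 FPKM in all 6.

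Partner chains kept different proportions. The FPKM of Col1a1 over that of Col1a2 was 1.73 and 1.83 in CFZ hearts, 1.81 and 2.03 in CFZ_EA hearts, and 1.85 and 2.78 in control hearts, so it was highest in control replicate 2. The ratio of Col6a1 to Col6a2 was 1.92 and 1.83 in CFZ hearts, 1.81 and 1.72 in CFZ_EA hearts, and 1.82 and 1.92 in control hearts. Col4a1 over Col4a2 was 1.05 and 1.001 in CFZ hearts, 0.927 and 1.07 in CFZ_EA hearts, and 1.07 and 0.772 in control hearts, lowest in control replicate 2. The type VI pair therefore varied least of the 3 pairs.

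Marker genes of other cells were read beside the difference between the control libraries. The summed FPKM of 6 activated fibroblast markers was 3.54 times as high in control replicate 2 as in control replicate 1, that of 8 macrophage markers 2.92 times, and that of 8 epicardial and mesothelial markers 2.47 times. Only 3 of the 6 activated fibroblast markers averaged at least 1 FPKM over the other 5 libraries, and 2 of these were at least 2-fold higher in control replicate 2. The same held for 2 of 3 such epicardial and mesothelial markers, 5 of 7 macrophage markers and 4 of 9 fibroblast markers. The ratio of sums was 1.37 for 10 fibroblast markers, whose median log2 ratio was 0.71 among the 9 tested, 1.28 for 7 smooth muscle and pericyte markers, 1.002 for 8 endothelial markers, 0.962 for 8 cardiomyocyte markers and 0.566 for 7 atrial markers. No marker in these lists was at 0 in all libraries. Their part in the collagen difference was not tested, and in heart tissue of unstated region more cells of a type and more RNA per cell cannot be told apart.

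Over the 6 libraries, log2(FPKM + 1) of Col1a1 was most similar to that of Col1a2 among the chains, with a Pearson correlation of 0.999, and least similar to that of Col4a1, at 0.29. Outside the collagens the most similar genes were Anxa8 (0.999), F13a1, Lrrc17, Cd248 and Tgfb3, and 72 such genes reached 0.99. These values are descriptions over 6 points, of which control replicate 2 lies far from the rest, and rest on that library. They are not given without it, since 5 libraries would be left. Anxa8 and Lrrc17 were below 1 FPKM in every other library, so they were tested only through control replicate 2. How many of the 72 genes this holds for is not given here.

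Carfilzomib was then compared with vehicle. All 17 tested chains had lower estimates in CFZ hearts than in control hearts, and the estimates were larger for fibrillar than for basement membrane chains, but none passed the test. Over all genes, 5220 of 10329 had lower estimates. With edgeR's quasi-likelihood test and Benjamini-Hochberg adjustment, 0 of 17 were called, and 0.0290% of all genes tested were called lower. Adjusted p-values of the chains ran from 0.608 to 0.895. At an unadjusted p under 0.05, 10 of 17 chains were lower, against 5.90% of all genes tested. This count was 0 without CFZ replicate 2 (2.93% of genes), 3 without CFZ replicate 1 (3.60%), 4 without control replicate 2 (3.17%) and 12 without control replicate 1 (11.8%). With the replicate number as a block it was 4 (5.88% of genes). With limma on log2(FPKM + 1) it was 1 (506 of 10329 genes), and on log2(FPKM + 0.1) it was 2 (525 genes).

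Col1a1 averaged 13.0 ± 2.52 FPKM in CFZ hearts and 154 ± 188 FPKM in control hearts (SD, n = 2 each), a log2 fold change of -3.46 ± 0.96 (SE; edgeR's quasi-likelihood test, adjusted p = 0.608). Col3a1 averaged 19.6 ± 6.95 FPKM in CFZ hearts and 190.5 ± 225 FPKM in control hearts (SD, n = 2 each), a log2 fold change of -3.18 ± 0.91 (SE; edgeR, adjusted p = 0.608). Col1a2 averaged 7.35 ± 1.71 FPKM in CFZ hearts and 57.3 ± 64.7 FPKM in control hearts (SD, n = 2 each), a log2 fold change of -2.86 ± 0.82 (SE; edgeR, adjusted p = 0.608). The control SD exceeds the control mean in all 3. Without control replicate 2 the log2 fold changes were -0.73 ± 0.22 for Col1a1, -0.71 ± 0.27 for Col3a1 and -0.67 ± 0.20 for Col1a2 (SE), with edgeR adjusted p of 0.945 or above. The smallest estimates were those of Col4a1, at -0.13 ± 0.20, Col6a6, at -0.14 ± 0.25, and Col4a2, at -0.31 ± 0.17 (SE).

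By class, the median log2 fold change of CFZ against control was -2.57 for fibrillar, -0.31 for basement membrane and -0.96 for other chains, beside -0.0034 over all genes tested. Leaving out control replicate 2 gave -0.64, -0.26 and -0.25 in the same order, with 15 of 17 chains lower. Leaving out CFZ replicate 2 as well gave -0.36, -0.047 and -0.052, with 13 of 17 lower. Leaving out control replicate 1 gave -3.36, -0.35 and -1.46, and there 10 chains and 2.98% of genes were called lower. The basement membrane median was -0.52 without CFZ replicate 1 and -0.12 without CFZ replicate 2.

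In TMM-scaled CPM the CFZ and control libraries did not overlap, CFZ being lower, for 12 of 17 chains, against 18.7% of all genes tested. They were 5 of 6 fibrillar chains (all but Col5a3), 2 of 3 basement membrane chains (Col4a2 and Col4a5) and 5 of 8 others (Col6a1, Col6a2, Col14a1, Col16a1 and Col18a1). In FPKM, Col4a2 and Col6a1 of these overlapped, CFZ replicate 1 being above control replicate 1. On the CPM scale both CFZ libraries lay below control replicate 1 for 13 of 17 chains, against 32.0% of genes. DESeq2 called 1 chain lower, Col16a1 (adjusted p = 0.0425), where it called 1.07% of genes lower. DESeq2 was run on all 6 libraries only.

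**Figure D4:**
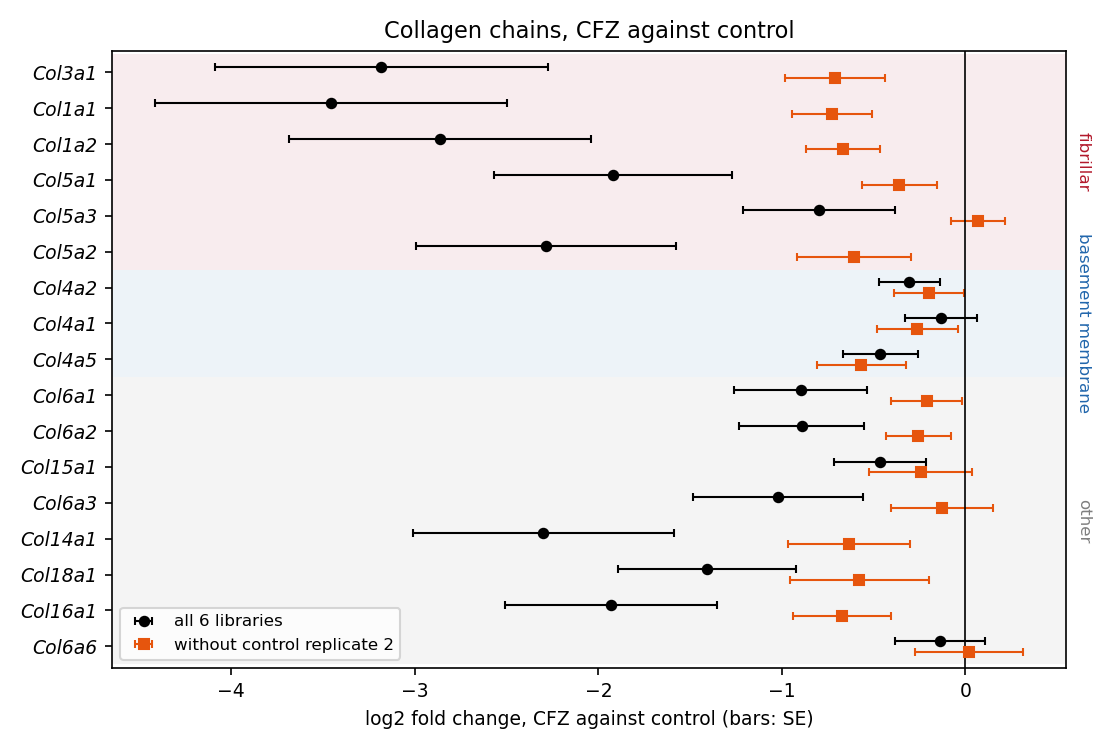
Log2 fold change of CFZ against control for each tested chain with all 6 libraries (circles) and without control replicate 2 (squares), with bars for the SE. The fibrillar estimates lie between -3.46 and -0.80 with all libraries and between -0.73 and 0.07 without control replicate 2, while those of basement membrane chains move little.

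Markers of fibroblasts, of the heart's surface layer and of atrial muscle were read beside these values. The summed FPKM of the fibroblast markers was 608 and 535 in CFZ hearts, 801 and 805 in CFZ_EA hearts, and 752 and 1028 in control hearts, and without control replicate 2 all 9 tested markers had lower estimates in CFZ (median -0.51 on the log2 scale). The epicardial and mesothelial sum was 4.77 and 4.17 in CFZ hearts, 5.07 and 13.7 in CFZ_EA hearts, and 22.8 and 56.2 in control hearts. The atrial cardiomyocyte sum was 341 and 209 in CFZ hearts, 972 and 5720 in CFZ_EA hearts, and 2856 and 1617 in control hearts. All 3 of these sums were lowest in CFZ hearts. In 3 other lists the CFZ sums were not both below the rest. The activated fibroblast sum was 78.0 and 75.6 in CFZ hearts, 64.0 and 96.5 in CFZ_EA hearts, and 80.9 and 287 in control hearts. Most of this sum was Acta2, at 73.0 and 71.7 FPKM in CFZ hearts. Both CFZ libraries were below every other library for Postn, Fn1 and Comp, and not for Acta2, Tnc or Cthrc1. Without control replicate 2 the median log2 fold change of this list was -1.07, with 4 markers lower and 2 higher in CFZ. The macrophage sum was 215 and 246 in CFZ hearts, 217 and 255 in CFZ_EA hearts, and 287 and 839 in control hearts. The endothelial sum was 287 and 323 in CFZ hearts, 238 and 244 in CFZ_EA hearts, and 290 and 290.3 in control hearts. The part of these markers in the collagen values was not tested.

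Electroacupuncture was compared with carfilzomib alone. Of 17 chains, 15 had higher estimates in CFZ_EA hearts than in CFZ hearts, all of them by less than 2-fold, and Col4a1 and Col4a2 had lower ones. Over all genes, 4967 of 10329 had higher estimates. With edgeR's quasi-likelihood test 0 of 17 were called (adjusted p = 0.9997 for each), and 0 reached an unadjusted p under 0.05. Of all genes tested, 0.0194% were called higher. At an unadjusted p under 0.05 in the same test, 208 of 10329 genes were higher and 111 lower. With only the CFZ and CFZ_EA libraries in the fit, 2 of 17 chains were higher at that threshold, beside 351 of 10329 genes. In that fit 0 chains were called.

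The largest estimates were those of Col1a1, Col18a1 and Col16a1. Col1a1 averaged 19.6 ± 3.49 FPKM in CFZ_EA hearts and 13.0 ± 2.52 FPKM in CFZ hearts (SD, n = 2 each), a log2 fold change of 0.61 ± 0.96 (SE). Col18a1 averaged 2.90 ± 1.17 FPKM in CFZ_EA hearts and 1.98 ± 0.41 FPKM in CFZ hearts (SD, n = 2 each), a log2 fold change of 0.57 ± 0.49 (SE). Col16a1 averaged 1.81 ± 0.35 FPKM in CFZ_EA hearts and 1.29 ± 0.28 FPKM in CFZ hearts (SD, n = 2 each), a log2 fold change of 0.50 ± 0.58 (SE). The CFZ_EA and CFZ libraries overlapped for Col18a1 and not for Col1a1 or Col16a1. At the lower end were Col4a1, at -0.06 ± 0.20, Col4a2, at -0.02 ± 0.17, and Col6a3, at 0.10 ± 0.46 (SE). Because the spread is shared by all groups, the SE of Col1a1 carries the distance between the control libraries. Without control replicate 2 the estimates of the fibrillar chains ran from 0.14 to 0.61, with a median of 0.37.

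The median log2 fold change of CFZ_EA against CFZ was 0.37 for fibrillar, -0.02 for basement membrane and 0.30 for other chains, beside -0.01 over all genes tested. Without CFZ replicate 2 the medians were 0.11, -0.20 and 0.16, with 12 of 17 chains higher, and without CFZ replicate 1 they were 0.71, 0.19 and 0.56, with 17 of 17 higher. In TMM-scaled CPM the groups did not overlap, CFZ_EA being higher, for 7 of 17 chains, against 16.7% of all genes tested. These were 5 of 6 fibrillar chains (Col1a1, Col1a2, Col3a1, Col5a1 and Col5a3), Col16a1 and Col6a2. In FPKM, Col3a1 and Col5a1 overlapped by a small margin, Col3a1 being at 23.8 FPKM in CFZ_EA replicate 1 and 24.5 FPKM in CFZ replicate 1.

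**Figure D5:**
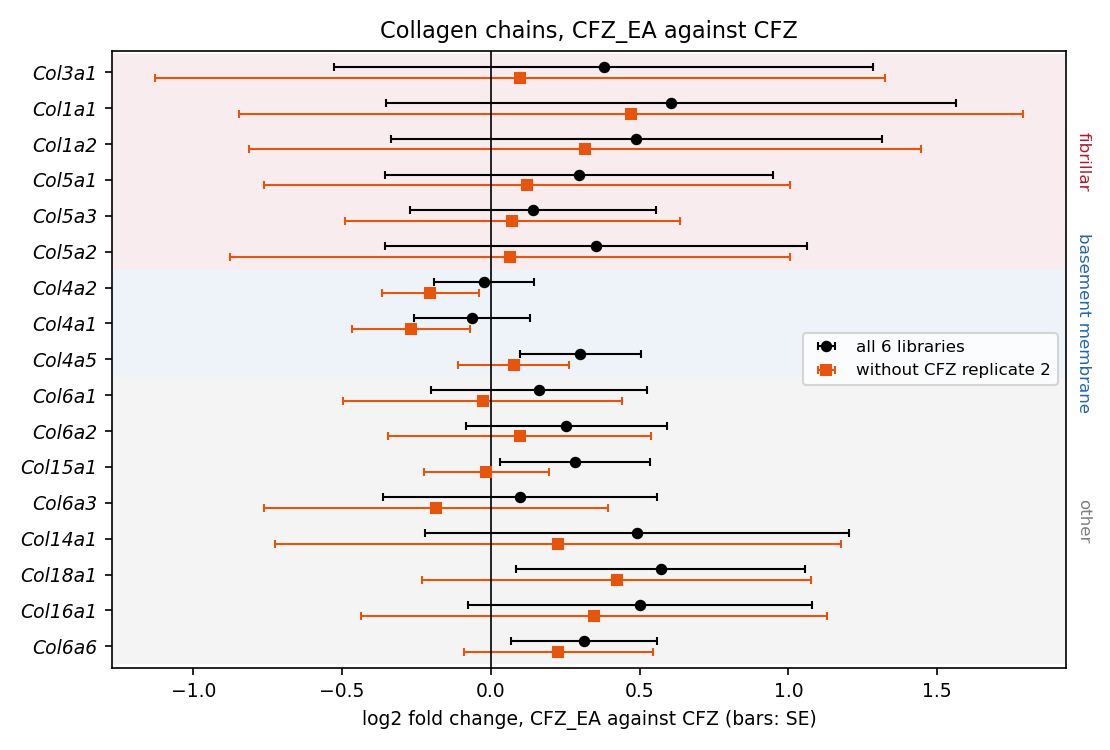
Log2 fold change of CFZ_EA against CFZ for each tested chain with all 6 libraries (circles) and without CFZ replicate 2 (squares), with bars for the SE. With all libraries the estimates lie between -0.06 and 0.61, and all but those of Col4a1 and Col4a2 are above 0.

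CFZ_EA hearts were last set against control hearts, which also serve as the controls of CFZ, so the comparisons share libraries. The log2 fold change was -2.85 ± 0.96 for Col1a1, -2.80 ± 0.91 for Col3a1 and -2.37 ± 0.82 for Col1a2 (SE), beside -3.46, -3.18 and -2.86 for CFZ against control. With edgeR's quasi-likelihood test 0 of 17 chains were called, adjusted p running from 0.848 to 0.920, and 0.00% of all genes tested were called lower. At an unadjusted p under 0.05, 6 chains were lower, against 3.66% of genes. The number of chains was 0 with the replicate number as a block, where 372 of 10329 genes were lower. It was also 0 with limma on log2(FPKM + 1), where 324 genes were lower. Without control replicate 1, 8 chains and 2.04% of genes were called lower, and without control replicate 2, 0 of 17 chains were at an unadjusted p under 0.05, against 1.41% of genes.

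Medians were -2.15 for fibrillar, -0.20 for basement membrane and -0.79 for other chains, and -0.15, -0.26 and -0.02 without control replicate 2. Without that library the estimates of the fibrillar chains, Col1a1, Col3a1 and Col1a2 among them, ran from -0.33 to 0.21. In TMM-scaled CPM, CFZ_EA libraries lay below both control libraries for 5 of 17 chains (Col1a2, Col3a1, Col5a2, Col4a2 and Col6a1), against 17.8% of all genes tested. Both lay below control replicate 1 for 7 of 17 chains, all 3 of the basement membrane among them, against 30.9% of genes. Col6a6 was the 1 chain with a higher estimate in CFZ_EA than in control, at 0.17 ± 0.25 (SE). Without control replicate 2, 3 of 17 chains had higher estimates.

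Genes that act on collagen after it is made were read in 5 lists, none of which held a called gene in any of the 3 comparisons. For folding and modification, 19 of 21 tested genes had lower estimates in CFZ than in control, with a median log2 fold change of -0.48, and for 15 of 21, with a median of -0.15, without control replicate 2. Serpinh1, the collagen chaperone HSP47, was at 139.5 and 78.7 FPKM in CFZ hearts, 121.5 and 132.7 FPKM in CFZ_EA hearts, and 158.7 and 302 FPKM in control hearts. Sparc, a collagen-binding matricellular protein kept here and in the basement membrane list, was at 105 and 82.1 FPKM in CFZ hearts, 88.9 and 105 FPKM in CFZ_EA hearts, and 140 and 408 FPKM in control hearts. Both were highest in control replicate 2.

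For procollagen processing and crosslinking, all 12 tested genes had lower estimates in CFZ than in control, with a median of -1.40, and for 11 of 12, with a median of -0.34, without control replicate 2. Lox, the lysyl oxidase that crosslinks fibrils, was at 0.352 and 0.33 FPKM in CFZ hearts, 0.477 and 0.468 FPKM in CFZ_EA hearts, and 0.361 and 5.11 FPKM in control hearts, so its estimate of -2.88 ± 0.98 (SE) became -0.10 without control replicate 2. Being below 1 FPKM in every other library, Lox was among the 12 tested genes only through control replicate 2. Fmod, the fibril-binding proteoglycan fibromodulin, followed another order, at 1.93 and 0.687 FPKM in CFZ hearts, 5.04 and 4.24 FPKM in CFZ_EA hearts, and 5.95 and 3.95 FPKM in control hearts. Its log2 fold change of CFZ against control was -1.90 ± 0.46 with all libraries and -2.22 ± 0.53 without control replicate 2 (SE; edgeR, adjusted p = 0.608 and 0.653). That of CFZ_EA against CFZ was 1.85 ± 0.46 (SE), the largest estimate of the list there, and was not called. Fmod is also 1 of 7 genes of the tendon and cartilage list, whose summed FPKM was 5.96 and 5.03 in CFZ hearts, 13.0 and 18.2 in CFZ_EA hearts, and 15.9 and 17.6 in control hearts.

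For collagenases, their inhibitors and collagen uptake, 7 of 9 tested genes had lower estimates in CFZ than in control, with a median of -1.25, and for 8 of 9, with a median of -0.40, without control replicate 2. Timp1, an inhibitor of matrix metalloproteinases, was at 1.91 and 2.10 FPKM in CFZ hearts, 2.78 and 4.60 FPKM in CFZ_EA hearts, and 6.49 and 105 FPKM in control hearts, and both CFZ libraries were also below control replicate 1. Ctsk, the collagen-degrading protease cathepsin K, was at 2.75 and 2.28 FPKM in CFZ hearts, 2.54 and 4.19 FPKM in CFZ_EA hearts, and 3.28 and 21.4 FPKM in control hearts. For receptors, 4 of 4 tested genes had lower estimates in CFZ, with a median of -0.40, and for 4 of 4, with a median of -0.31, without control replicate 2. Ddr2, the fibrillar collagen receptor of fibroblasts, was at 0.674 and 0.684 FPKM in CFZ hearts, 0.943 and 1.47 FPKM in CFZ_EA hearts, and 1.23 and 1.85 FPKM in control hearts. Its CFZ values were below all 4 others, and it reached the mean FPKM required for testing only with control replicate 2 included.

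Partners of type IV collagen in the basement membrane, the laminins, nidogens and perlecan among them, were nearer to type IV itself. Of 12 tested, 11 had lower estimates in CFZ than in control, with a median log2 fold change of -0.29, and for 9 of 12, with a median of -0.18, without control replicate 2. Lamb2, a laminin chain, was at 61.3 and 57.5 FPKM in CFZ hearts, 74.4 and 64.6 FPKM in CFZ_EA hearts, and 59.6 and 65.5 FPKM in control hearts. Nid1, which links laminin to type IV collagen, was at 15.4 and 10.8 FPKM in CFZ hearts, 13.2 and 13.2 FPKM in CFZ_EA hearts, and 15.99 and 23.6 FPKM in control hearts. Between CFZ_EA and CFZ, estimates were higher in CFZ_EA for 14 of 21 folding genes, 11 of 12 processing genes, 8 of 9 collagenase, inhibitor and uptake genes, 4 of 4 receptors and 9 of 12 basement membrane partners. Sparc was the 1 gene of the 12 basement membrane partners that was at least 2-fold higher in control replicate 2 than in control replicate 1.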

How the data were processed

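Heart mRNA was measured in 6 libraries. Per the submitters' processing notes, the tools were StringTie 1.3.4d, HISAT2 2.0.4 and cutadapt 1.9, and the build was GRCm38. The authors deposited, per the file headers, an FPKM column and a count column for each library. The deposited counts were taken as estimated counts and were rounded. Among values of 1 to 20, multiples of 4 made up 42.2% to 43.3% in each library, where chance gives 25%, so a count may be less than a read. The protocol marks strand, and whether counting used it is not given in the sources used here.

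Genes averaging 1 FPKM or more were scaled by TMM and fitted with edgeR 4.0.16 (R 4.3.3), with group as the only term over all 6 libraries (residual degrees of freedom: 3). Calls are Benjamini-Hochberg adjusted p-values, over all 10329 genes, under 0.05. No exact test was used, as its smallest p with 2 libraries on each side is 0.333. The steps were tested on simulated counts. Alternatives were the filter, scaling, test (DESeq2 1.42.0, limma 3.58.1 on log2 FPKM with a pseudocount of 1 or 0.1), samples, replicate block and each library left out. Counts divided by 4, and the fit without both control replicate 2 and CFZ replicate 2, were added after seeing the data.

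Genes named are the most abundant chains of each class, the 3 most extreme of each comparison, up to 2 genes per partner list and comparison (of which some are given), and the 5 genes most like Col1a1. The members, lists and this rule were chosen with earlier results of these data known. All 44 IDs matched GENCODE M21, 37 with the same coordinates. Promoter sequences are from RefSeq.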

Additional observations from a re-analysis of the deposited data

How the results depend on the processing

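With 2 libraries per group, leaving out 1 moved most counts. For CFZ against control this gave 0 to 24 genes called higher, 0 to 308 lower and 0 to 10 chains lower, and medians of -3.36 to -0.64 (fibrillar), -0.52 to -0.12 (basement membrane) and -1.46 to -0.25 (other). For CFZ_EA against CFZ it gave 0 to 4 genes higher, 0 to 1 lower and medians of 0.11 to 0.71 (fibrillar), -0.20 to 0.19 (basement membrane) and 0.16 to 0.56 (other). For CFZ_EA against control it gave 0 to 20 genes higher, 0 to 211 lower, 0 to 8 chains lower, and medians of -2.94 to -0.15 (fibrillar), -0.30 to -0.05 (basement membrane) and -1.27 to -0.016 (other). DESeq2 called 27 genes higher, 111 lower and 1 chain lower for CFZ against control, 38 higher and 17 lower for CFZ_EA against CFZ, and 26 and 26 for CFZ_EA against control. Without the filter or with filterByExpr, 1 gene was higher for CFZ against control, the basement membrane median of CFZ_EA against CFZ became 0.40, since 6 chains then entered, and without the filter 21 chains passed 2-fold between the control libraries (12.2% of genes with counts in both). With only the groups compared in the fit, 0 genes were lower for CFZ against control and 1 for CFZ_EA against CFZ, and with counts divided by 4, 1 gene was lower for CFZ against control and 1 higher for CFZ_EA against CFZ. Without control replicate 2 and CFZ replicate 2 together, 1 gene was higher and the medians were -0.36, -0.047 and -0.052 for CFZ against control; 6 genes were higher, 2 lower and the basement membrane median was -0.21 for CFZ_EA against CFZ; and the fibrillar and other medians were -0.15 and -0.013 for CFZ_EA against control. The cause of these shifts was not tested.

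Deviations of same-numbered libraries from their group means correlated at -0.06, 0.10 and -0.02 over the genes tested. With 2 libraries per group, these values cannot decide whether the replicate numbers pair the libraries. With the replicate block 0 genes were called higher and 2 lower for CFZ against control, and the Col1a1 log2 fold change was -2.86.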
